A study of Homo sapiens with 54 samples.

Results

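Gene expression was compared between A549 cells carrying a USP18 expression vector that had received 5 µM of the compound coded CP18 for 48 h and the same cells given vehicle (DMSO) for 48 h. The libraries were chosen by their labels alone, as all 3 labelled with this vector, compound and dose and all 3 labelled with this vector and DMSO, and they make up 6 of the 54 libraries of the series. A549 is a human lung adenocarcinoma line. The study searched for small molecules that inhibit USP18, and its RNA sequencing asked how lung cancer cells with and without added USP18 respond to them. It holds 18 groups of 3 libraries, in which DMSO, CP2, CP14 or CP18 was given to A549 cells carrying either the USP18 vector or the same vector without an insert, called empty below. Which code stands for β-lapachone, the compound named in the design of the series, is not stated in the sources used here. A further 6 groups of 3 libraries serve below only to place the response, all taken at 48 h: vehicle and 5 µM CP18 in empty vector cells, 1 and 2.5 µM CP18 in USP18 cells, and 5 µM CP14 and 5 µM CP2 in USP18 cells. Each vector is represented by 1 engineered cell population, so a difference between the vectors cannot be told apart from other differences between these populations. The study's methods speak of independent replicates as its usual practice, without naming the sequencing, and the labels do not say that these replicates were separate cultures. Here p-values therefore measure only the spread between these samples, which may be technical.

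USP18 is the protease that removes the ubiquitin-like modifier ISG15 from proteins, and independently of that activity it binds the type I interferon receptor and dampens JAK-STAT signalling. ISG15 and the enzymes that attach it are themselves induced by interferon, so the pathway carries its own feedback. Other programmes followed here are the unfolded protein response, which raises chaperones of the endoplasmic reticulum, the heat shock response, which raises cytosolic chaperones, and the immediate early genes, which encode transcription factors such as EGR1, JUN and the NR4A nuclear receptors.

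The deposited values are expected counts per gene. The vehicle libraries held 20010373, 20369243 and 20815795 of them and the CP18 libraries 21510966, 18876306 and 19035316, within the range of 16673228 to 25609062 over all 54 libraries. Levels are given as CPM, a gene's count relative to the total of its library as scaled by edgeR's TMM method. On totals without that scaling, 3 counts, the limit taken as detectable in a library, correspond to 0.139 to 0.159 CPM here. Genes with a count above 0 numbered 20852, 20806 and 20787 with vehicle and 21027, 20533 and 20464 with CP18, and mitochondrially encoded genes took 3.25%, 3.03% and 2.68% against 3.15%, 3.17% and 2.78% of the counts. In a principal component analysis of the 2000 most variable genes, the first component (28.1% of the variance) placed the vehicle libraries at 12.5, 14.6 and 16.1 and the CP18 libraries at -10.2, -11.9 and -21.1. The second (20.3%) set vehicle replicate 1 (17.2) and CP18 replicate 3 (17.1) apart from the others, which lay between -12.8 and -3.84.

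The vector label was checked by the transgene. USP18 (ENSG00000184979.9, chromosome 22 from 18150118 to 18177397, GRCh38) was at 1303, 1293 and 1333 CPM in the vehicle libraries and at 1120, 1112 and 1102 CPM in the CP18 libraries. Empty vector cells held 10.5, 10.7 and 11.0 CPM with vehicle and 11.2, 8.88 and 11.9 CPM with CP18, so every USP18 library carried the excess its label states. With CP18 the transcript fell from 1310 ± 20.9 to 1111 ± 8.68 CPM (SD, n = 3), which is -0.24 as log2 fold change (the logarithm to base 2 of the ratio; SE 0.05, adjusted p = 0.0018 by edgeR's quasi-likelihood test with Benjamini-Hochberg adjustment, as for all adjusted p-values here). USP41 is a near-identical copy of USP18 and had 0 counts in every vehicle library of empty vector cells, but 25.5, 25.0 and 26.0 CPM in vehicle-treated USP18 cells and 20.4, 18.0 and 16.68 CPM with CP18 (-0.47, adjusted p = 0.0053). How reads of the vector were split between the copies is not known, so the value of USP41 is uncertain.

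Marker genes were read next, with the CPM of this paragraph taken on library totals without the TMM scaling, whose factors were 1.002 to 1.017 in these libraries. Fold changes are from the fit, as elsewhere. The 12 epithelial and A549 markers, none of them at 0, summed to 20400, 20700 and 20900 CPM with vehicle and to 19700, 20100 and 19500 CPM with CP18. ALDH1A1, a retinal dehydrogenase and their most abundant member, was at 7330 and 6310 CPM and fell by 0.23 on the log2 scale. In this list 3 members rose and 3 fell at an adjusted p under 0.05 (median log2 fold change -0.05), where 4.32% of all genes tested rose and 6.4% fell. Fewer cells of a type and less RNA per cell cannot be told apart in such bulk libraries. Markers of other cell types were low throughout. The 10 leukocyte markers (CD3D, CD3E, MS4A1 and NKG7 at 0) summed to 39.3, 35.5 and 36.1 CPM against 39.3, 39.4 and 38.2 CPM, most of it CD68 (33.3 and 35.9 CPM), a gene of lysosomes in many cell types. The 7 fibroblast markers (none at 0) summed to 11.1, 10.1 and 11.2 against 8.51, 8.30 and 10.3 CPM, led by COL1A1 (4.71 and 5.11 CPM). Endothelial markers (5, with KDR at 0) reached at most 0.55 CPM in sum, with PECAM1 the most abundant at 0.362 and 0.189 CPM. Type II pneumocyte markers (7, with SFTPA1 and SFTPB at 0) summed to 44.5, 43.1 and 46.0 against 41.1, 42.1 and 42.2 CPM, nearly all from ABCA3 (41.7 and 39.0 CPM), a lipid transporter gene. No member of the fibroblast, leukocyte or type II lists passed the test (medians of the 4, 3 and 3 members tested -0.61, -0.28 and -0.11), and no endothelial marker was tested. The leukocyte median was -0.06 without vehicle replicate 1 and -0.08 with no filter on low counts. The fibroblast median was 0.12 with no filter and 0.11 with 10 counts in every library, where the type II median was -0.28, so these medians of few genes have no steady size.

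CP18 at 5 µM moved many genes by small amounts and few by large ones, and most of the large changes were falls. Of 15662 genes tested, 70 (0.447%) passed an adjusted p of 0.05 with a log2 fold change beyond 1 in either direction, which is what called means from here on. Of these, 13 (0.083%) were higher and 57 (0.364%) lower with CP18. An adjusted p under 0.05 at any size was reached by 1680 genes (10.7%), 677 higher (4.32%) and 1003 lower (6.4%), and those are the genes said to have risen or fallen below. The median of the absolute log2 fold change over all genes was 0.12, and for 13495 genes (86.2%) the 95% interval of the change lay within 1 in either direction. Libraries of the 2 groups did not overlap for 5406 genes (34.5%), and among the called genes this held for all 57 lower and for 11 of the 13 higher ones. The other 2 were named after their values were seen. AC010422.6 had 0, 30 and 43 counts with CP18 and 0 in each vehicle library, and CU634019.1 had 109, 0 and 143 against 0, 0 and 1, so both calls rest on 2 of 3 treated libraries. DESeq2 called 42 genes and gave an adjusted p to 44 of the 70, no filter on low counts gave 141 (54 higher and 87 lower), and a demand for 10 counts in every library gave 24, with 22 of the 22 called genes it still tested among them. The 1680 genes became 900 without CP18 replicate 1, 1004, 1070 and 1008 without vehicle replicates 1, 2 and 3, and 1097 without CP18 replicate 2. They became 3096 in a fit of the 6 libraries alone and 2569 in a fit of all 54.

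**Figure D1:**
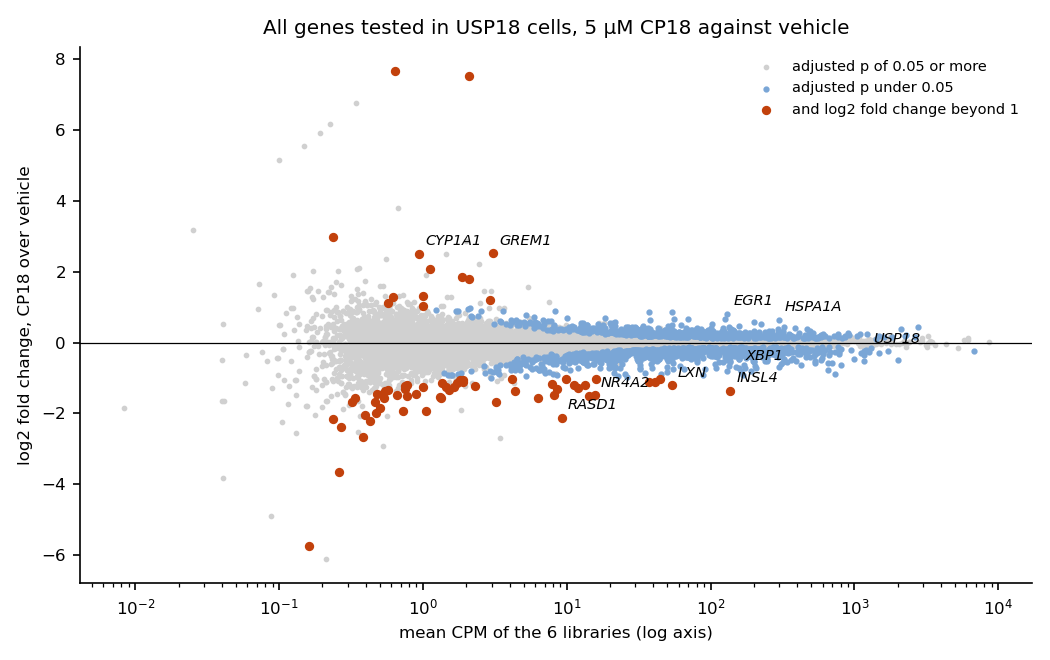
Log2 fold change (5 µM CP18 over vehicle, USP18 cells, n = 3 each) of each of the 15662 genes tested against its mean CPM over the 6 libraries on a log axis, with genes at an adjusted p under 0.05 in blue and the 70 called genes in orange. The called genes lie mostly below 0 (57 of 70), and the labelled genes range from RASD1 at -2.13 to GREM1 at 2.53.

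The falls included the 2 less abundant members of the NR4A family of orphan nuclear receptors, which are immediate early genes. NR4A2 (ENSG00000153234.14, chromosome 2 from 156324437 to 156342348) was at 22.9, 23.5 and 23.0 CPM with vehicle and at 8.14, 7.69 and 8.81 CPM with CP18. Every treated library was below every vehicle library, and the mean was 2.81-fold lower (log2 fold change -1.49, SE 0.08, adjusted p = 1.4e-09). NR4A3 (chromosome 9 from 99821855 to 99866891) was at 8.52, 8.54 and 11.0 CPM against 3.38, 2.93 and 3.18 CPM, again without overlap (-1.56, SE 0.16, adjusted p = 1.5e-06). The remaining receptor, NR4A1, was the most abundant and moved least. It had 152, 157 and 158 CPM with vehicle and 127, 115 and 107 CPM with CP18 (-0.42, adjusted p = 0.0027). NR4A1 lies outside the rule by which genes were chosen for naming and is given because it completes the family.

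NR4A genes are known targets of the cAMP response element binding protein, CREB, and the promoter of NR4A3 is shown because it holds several copies of the core of that element. The window is 300 bases long at chr9:99821635-99821934 (GRCh38.p14, plus strand, RefSeq), with TGACG in capitals, searched on both strands so that CGTCA marks it on the other strand.
NR4A3: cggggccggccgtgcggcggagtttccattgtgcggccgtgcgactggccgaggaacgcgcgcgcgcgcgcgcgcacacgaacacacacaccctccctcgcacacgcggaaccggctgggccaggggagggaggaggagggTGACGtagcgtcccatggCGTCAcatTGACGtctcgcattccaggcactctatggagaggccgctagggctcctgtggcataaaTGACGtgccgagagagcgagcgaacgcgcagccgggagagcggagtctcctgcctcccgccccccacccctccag
It held 4 matches, none of them overlapping a match of the other elements searched. The same letters were found in 16 of the 37 called lower genes with a promoter in the table (43.2%), in 3712 of 10960 tested genes with one (33.9%) and in 6828 of all 27305 promoters (25.0%). The full element, TGACGTCA, was not in NR4A3 and was found in 1 of the 37 (2.7%), in 340 of the tested genes (3.1%) and in 540 of all promoters (1.98%). Such a match describes the sequence only and is no proof of a bound site. NR4A2 had no entry.

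RASD1 (chromosome 17 from 17494437 to 17496395) encodes a Ras-related GTPase that is induced by glucocorticoids. It had 14.2, 14.5 and 16.3 CPM with vehicle and 2.65, 4.66 and 3.02 CPM with CP18, 4.37-fold lower on average and the largest fall by the rule for named genes (-2.13, SE 0.18, adjusted p = 2.5e-07). BMP6 (chromosome 6 from 7726099 to 7881728), a secreted ligand of the TGF-β superfamily, had 22.7, 20.2 and 20.2 against 7.04, 7.85 and 7.24 CPM (-1.51, SE 0.10, adjusted p = 1.6e-08). BMP6 overlaps TXNDC5 on the other strand, which was at 296 and 268 CPM (-0.14). SSTR2, a somatostatin receptor, had 5.33, 3.95 and 5.47 against 1.28, 1.73 and 1.56 CPM (-1.69, adjusted p = 4.7e-04). In RASD1, BMP6 and SSTR2, as in NR4A2 and NR4A3, the groups stood apart without overlap. The rule for the largest rises and falls required this of every gene it named.

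CREB3L1, a membrane-bound transcription factor of the CREB3 family that is processed in the Golgi, had 11.6, 11.3 and 13.2 CPM with vehicle and 3.11, 5.29 and 4.59 CPM with CP18 (-1.48, SE 0.17, adjusted p = 1.1e-05). The remaining large falls were at low levels. HAL, which encodes histidine ammonia-lyase, TAF11L11, CACNB2, a calcium channel subunit, and RASGEF1B, a guanine nucleotide exchange factor, were at 1.16, 1.66, 1.99 and 1.97 CPM with vehicle and at 0.300, 0.431, 0.664 and 0.671 CPM with CP18. Their log2 fold changes were -1.93, -1.93, -1.57 and -1.53. The long noncoding RNAs AC110285.2 (-1.52) and SCAT8 (-1.46) complete the 12 largest falls. AC110285.2 was no longer called without vehicle replicate 3, and SCAT8 not without vehicle replicate 2 or CP18 replicate 1. Over all 57 called lower genes the median log2 fold change was -1.38 and the largest -5.74, 18 had under 1 CPM in the vehicle group, and 4 had a group at or below 3 counts in every library, so their fitted folds are not sizes.

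INSL4, an insulin-like peptide gene known from placenta, had the smallest adjusted p of all (8.5e-10) and is named for that after its values were seen. It was at 196, 195 and 199 CPM with vehicle and at 72.2, 75.2 and 83.0 CPM with CP18, 2.57-fold lower (-1.36, SE 0.07). LXN, which encodes the carboxypeptidase inhibitor latexin, had 71.7, 73.2 and 78.5 against 32.2, 31.8 and 33.4 CPM (-1.20, SE 0.06, adjusted p = 1.2e-09). It lies across GFM1 on the other strand, which was at 91.4 and 96.0 CPM (0.07, adjusted p = 0.60). PTGS2, the inducible cyclooxygenase, had 944, 933 and 986 against 454, 533 and 551 CPM (-0.90, adjusted p = 1.6e-08). The spread within each group of these genes was small beside the gap between the groups.

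**Figure D2:**
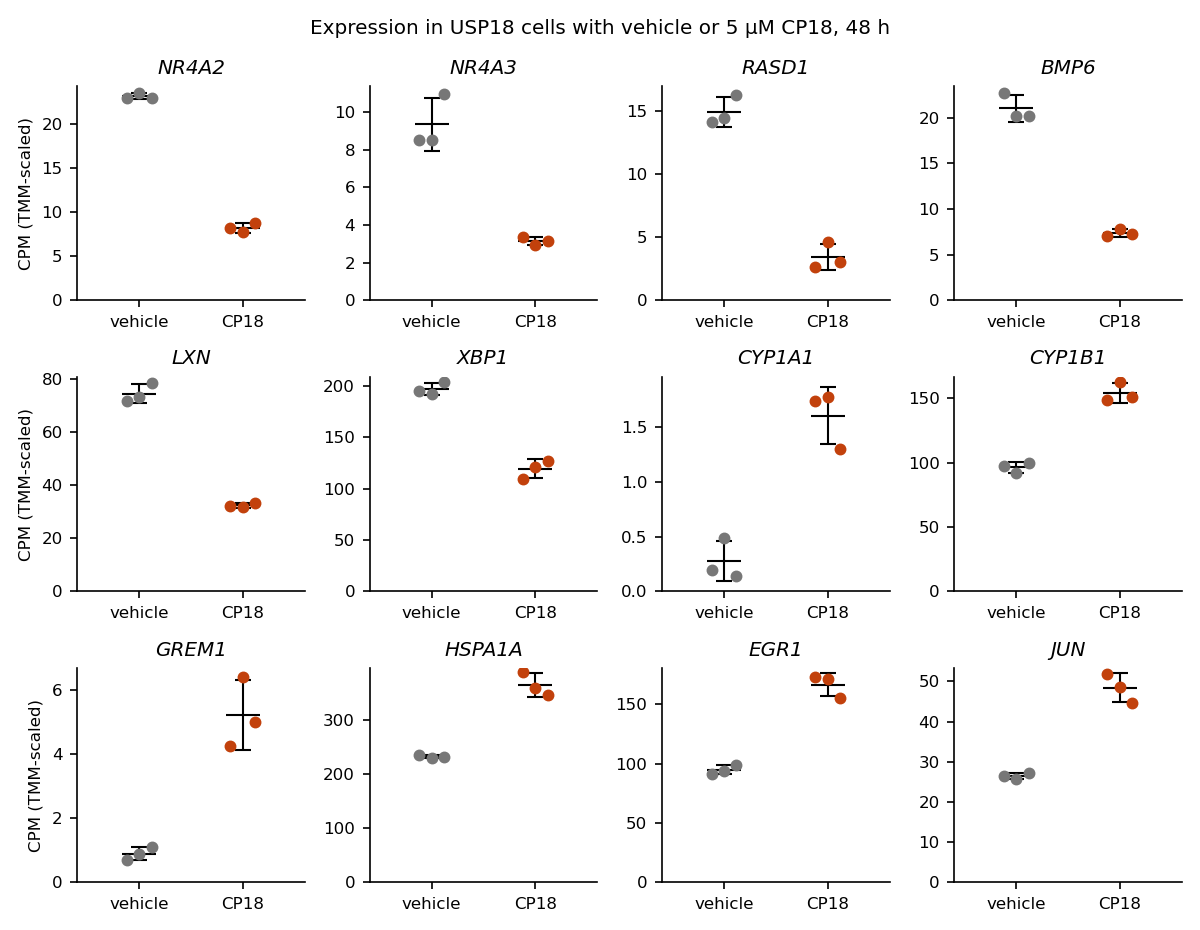
CPM (TMM-scaled) of 12 genes in each of the 6 libraries (points), with the mean (horizontal line) and SD of each group of 3, vehicle in grey and 5 µM CP18 in orange. In each panel the groups do not overlap: NR4A2, NR4A3, RASD1, BMP6, LXN and XBP1 lie lower with CP18, and CYP1A1, CYP1B1, GREM1, HSPA1A, EGR1 and JUN higher.

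Among the rises, GREM1 had the largest fold change of the genes named by rule. GREM1 (chromosome 15 from 32718004 to 32745106) encodes gremlin, a secreted antagonist of bone morphogenetic proteins. It went from 0.698, 0.879 and 1.10 CPM with vehicle to 4.25, 6.39 and 5.00 CPM with CP18 (5.78-fold, log2 fold change 2.53, SE 0.28, adjusted p = 5.1e-06). The lowest treated library held 93 counts and the highest vehicle library 23. INSYN2B, which encodes a protein of inhibitory synapses, had 0.996, 0.927 and 0.864 against 2.65, 3.77 and 3.34 CPM (1.80, adjusted p = 2.8e-04). CCL2, a monocyte-attracting chemokine, had 1.79, 0.976 and 2.496 against 3.93, 4.97 and 3.28 CPM (1.21, SE 0.26, adjusted p = 0.0051), and was not called without vehicle replicate 2 (0.92). The other called rises by rule were AC005324.3 (2.08), which overlaps TRIM16 on the same strand, SMIM11A (1.85), DDN (1.31) and FBXL16 (1.04), with mean levels of 2.91 CPM (SMIM11A) or less with CP18. SMIM11A was lost without vehicle replicate 3 or CP18 replicate 2 and in a fit of all 54 libraries, and DDN and FBXL16 each without vehicle replicate 1 or 2 or CP18 replicate 1 or 2.

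Targets of the aryl hydrocarbon receptor (AhR), a ligand-activated transcription factor that induces enzymes of xenobiotic metabolism, were mostly higher. Of 10 listed, 6 were tested, 5 rose and 0 fell at an adjusted p under 0.05, with a median log2 fold change of 0.49 against -0.01 over all genes. All genes tested split into 7420 with a positive and 8242 with a negative value, and this background applies to each list below. CYP1A1 (chromosome 15 from 74719542 to 74725536), the cytochrome P450 that is the classical AhR target, had 0.199, 0.488 and 0.144 CPM with vehicle and 1.74, 1.78 and 1.303 CPM with CP18. This is 5.70-fold higher (2.51, SE 0.40, adjusted p = 3.5e-04), on 3 to 10 counts in the vehicle libraries and 25 to 38 in the treated ones. CYP1B1, a related P450, had 97.8, 91.8 and 99.9 against 149, 163 and 151 CPM (0.68, adjusted p = 2.1e-07). TIPARP, an ADP-ribosyltransferase that feeds back on AhR, had 42.1, 41.8 and 45.1 against 68.2, 67.9 and 68.5 CPM (0.67, adjusted p = 2.0e-05). ALDH3A1 rose by 0.32. NQO1 rose by only 0.11 (adjusted p = 0.0499) and did not pass when any 1 of the 6 libraries was left out.

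The CYP1A1 window at chr15:74725479-74725778 (GRCh38.p14, minus strand, RefSeq, 300 bases) is shown with the core letters of the AhR response element, GCGTG, in capitals, searched on both strands.
CYP1A1: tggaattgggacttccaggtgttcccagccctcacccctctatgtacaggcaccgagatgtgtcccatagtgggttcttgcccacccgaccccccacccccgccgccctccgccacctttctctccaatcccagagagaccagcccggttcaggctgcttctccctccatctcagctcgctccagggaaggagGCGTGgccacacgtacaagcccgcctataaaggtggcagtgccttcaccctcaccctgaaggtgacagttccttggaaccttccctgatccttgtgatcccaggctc
It held 1 match. The letters are common, since 4 of the 4 tested AhR targets in the promoter table held them (100%), but so did 5554 of 10960 tested genes (50.7%) and 9919 of 27305 promoters (36.3%). The list holds known AhR targets, so its share describes how the list was made as much as these data. GCGTG overlaps the end of the endoplasmic reticulum stress element described further on, whose last 5 letters read CGTGG on the other strand.

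Immediate early genes went both ways. Of 28 tested AP-1, NR4A and EGR genes 6 rose and 8 fell (median -0.09), 2 of them called lower, NR4A2 and NR4A3. The median was -0.06 without vehicle replicate 3 and -0.05 without CP18 replicate 1. EGR1, a zinc finger transcription factor, had 91.5, 93.6 and 99.1 CPM with vehicle and 173, 171 and 155 CPM with CP18 (0.81, SE 0.05, adjusted p = 1.6e-08). JUN, a subunit of AP-1, had 26.5, 25.8 and 27.3 against 51.9, 48.6 and 44.7 CPM (0.87, SE 0.06, adjusted p = 2.7e-08). FOSB, another AP-1 subunit, had 7.62, 7.96 and 7.59 against 13.8, 14.3 and 9.23 CPM (0.69, adjusted p = 0.0023). So all 3 of these transcription factors were higher in every treated library while NR4A2 and NR4A3 were lower in every one, and FOSL2 (-0.33), also of the AP-1 family, fell. For NR4A2 and NR4A3, both among the largest falls, such separation was a condition of that choice.

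The unfolded protein response list moved in 1 direction. All 20 members were tested, all 20 had negative values, 17 fell and 0 rose at an adjusted p under 0.05, and the median log2 fold change was -0.25. XBP1 (chromosome 22 from 28794555 to 28800597), the transcription factor that is spliced on stress of the endoplasmic reticulum, had 195, 192 and 204 CPM with vehicle and 109, 121 and 127 CPM with CP18 (-0.73, SE 0.06, adjusted p = 8.4e-08). The chaperones changed less. HSP90B1, the endoplasmic reticulum form of HSP90, had 1862, 1828 and 1840 against 1504, 1532 and 1625 CPM (-0.25, adjusted p = 4.7e-04). CALR, the lectin chaperone calreticulin, had 732, 737 and 743 against 597, 616 and 642 CPM (-0.25, adjusted p = 3.2e-04). CRELD2, a secreted stress-induced protein, had 24.0, 24.4 and 24.1 against 17.1, 18.1 and 18.6 CPM (-0.43, adjusted p = 5.3e-04). PDIA4, a disulfide isomerase, fell by 0.27 on the log2 scale. HSPA5, the master chaperone BiP, is outside the naming rule and had 1011, 993 and 1020 against 878, 856 and 881 CPM (-0.21, adjusted p = 8.2e-04). In each of the 6 genes the treated libraries lay below the vehicle libraries.

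Promoters of 3 of these genes are shown because they hold the endoplasmic reticulum stress element, CCAAT and CCACG with 9 bases of any kind between them, in capitals here and searched on both strands. They lie at chr12:103930160-103930459 (plus strand) for HSP90B1, chr19:12938359-12938658 (plus strand) for CALR and chr22:49918384-49918683 (plus strand) for CRELD2, each 300 bases of GRCh38.p14 from RefSeq.
HSP90B1: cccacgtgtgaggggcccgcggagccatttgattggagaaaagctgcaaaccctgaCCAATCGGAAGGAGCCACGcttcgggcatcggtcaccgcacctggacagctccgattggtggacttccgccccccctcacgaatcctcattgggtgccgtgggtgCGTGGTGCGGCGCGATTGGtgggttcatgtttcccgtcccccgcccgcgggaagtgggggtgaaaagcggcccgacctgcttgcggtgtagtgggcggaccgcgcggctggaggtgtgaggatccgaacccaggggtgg
CALR: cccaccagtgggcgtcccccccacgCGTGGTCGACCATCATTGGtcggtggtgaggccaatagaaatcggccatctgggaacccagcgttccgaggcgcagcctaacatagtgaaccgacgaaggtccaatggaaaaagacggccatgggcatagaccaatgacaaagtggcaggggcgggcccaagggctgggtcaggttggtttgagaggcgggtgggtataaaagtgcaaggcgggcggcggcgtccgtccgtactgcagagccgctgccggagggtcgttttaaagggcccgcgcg
CRELD2: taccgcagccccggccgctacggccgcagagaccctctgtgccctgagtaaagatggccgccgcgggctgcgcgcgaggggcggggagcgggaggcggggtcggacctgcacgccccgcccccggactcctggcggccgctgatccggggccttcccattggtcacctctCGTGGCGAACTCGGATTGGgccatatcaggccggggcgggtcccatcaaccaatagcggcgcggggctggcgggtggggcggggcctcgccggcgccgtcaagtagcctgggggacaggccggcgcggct
HSP90B1 held 2 matches and CALR and CRELD2 1 each. Every match in HSP90B1 and CALR shares letters with GCGTG, searched on both strands. The element was found in 6 of the 19 list members in the table (31.6%; CALR, CANX, CRELD2, HSP90B1, HSPA5 and XBP1), in 14 of 10960 tested genes (0.128%) and in 22 of all 27305 promoters (0.0806%). The list was drawn up from known targets of this response, so the share describes how the list was made as much as these data.

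Most heat shock genes rose. Of 20 tested, 19 had positive values, 14 rose and 0 fell (median 0.27). HSPA1A (chromosome 6 from 31815543 to 31817946), the stress-inducible HSP70, had 234, 229 and 232 CPM with vehicle and 387, 359 and 345 CPM with CP18 (0.65, SE 0.04, adjusted p = 1.6e-08). HSPA1B, its near-identical copy, had 178, 188 and 189 against 276, 250 and 268 CPM (0.52), and the division of reads between the copies is uncertain. HSPA8, the constitutive HSC70, had 1806, 1828 and 1843 against 2422, 2295 and 2428 CPM (0.38, adjusted p = 3.9e-05). HSP90AA1, the inducible cytosolic HSP90, had 2329, 2357 and 2353 against 3167, 3116 and 3228 CPM (0.43, adjusted p = 7.8e-06), and DNAJA1, a co-chaperone, rose by 0.39. The cytosolic chaperones named were thus higher in every treated library, by at most 1.57-fold (HSPA1A), in the same samples in which those of the endoplasmic reticulum were lower.

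The windows of HSPA1A at chr6:31815293-31815592 (plus strand) and HSPA8 at chr11:123062087-123062386 (minus strand), 300 bases each of GRCh38.p14 from RefSeq, are shown with the heat shock element in capitals. It was searched as GAANNTTC or TTCNNGAA, which read the same on both strands.
HSPA1A: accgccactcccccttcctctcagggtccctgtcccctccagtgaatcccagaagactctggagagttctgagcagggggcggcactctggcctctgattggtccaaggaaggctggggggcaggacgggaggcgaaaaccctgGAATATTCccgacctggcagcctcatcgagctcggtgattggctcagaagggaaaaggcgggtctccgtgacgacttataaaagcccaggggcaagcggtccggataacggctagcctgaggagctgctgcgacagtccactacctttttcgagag
HSPA8: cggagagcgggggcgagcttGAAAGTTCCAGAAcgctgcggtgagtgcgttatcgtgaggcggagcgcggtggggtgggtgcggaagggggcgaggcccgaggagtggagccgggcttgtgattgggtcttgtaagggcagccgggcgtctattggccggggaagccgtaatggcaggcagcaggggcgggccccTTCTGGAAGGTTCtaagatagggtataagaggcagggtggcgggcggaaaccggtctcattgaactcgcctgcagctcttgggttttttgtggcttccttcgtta
HSPA1A held 1 match and HSPA8 4, which overlap one another in 2 runs and no other element searched. The letters were found in 8 of the 19 list members in the table (42.1%), in 1088 of 10960 tested genes (9.93%) and in 3738 of all promoters (13.7%). The list holds known heat shock genes, so here too the share describes how the list was made as much as these data.

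Most tubulins rose as well. Of 14 tested, all 14 had positive values and 10 passed the test (median 0.19). TUBB3, a β-tubulin, had 91.1, 91.9 and 93.99 against 120, 114 and 112 CPM (0.32), TUBA1A rose by 0.23, TUBA4A by 0.32, TUBB by 0.19 and TUBB2B by 0.50. The α-tubulin genes share long stretches of sequence, so single values among them are uncertain.

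Most members of the cell cycle lists had small positive values. DNA replication genes (35 tested) had 34 positive values, with 14 that rose and 0 that fell (median 0.15). FEN1, the flap endonuclease of lagging strand synthesis, had 108, 106 and 107 CPM with vehicle and 135, 132 and 136 CPM with CP18 (0.33, SE 0.04, adjusted p = 1.8e-05). It lies within FADS2 on the same strand, which moved the other way (-0.17, adjusted p = 0.017). UHRF1, which recruits the maintenance DNA methyltransferase, had 69.6, 71.6 and 71.7 against 94.6, 86.1 and 88.4 CPM (0.34), and MCM10 and RFC2 rose by 0.30 and 0.28. TYMS (0.19) did not pass without vehicle replicate 1 or CP18 replicate 1. Mitosis genes (30 tested) had 25 positive and 5 negative values, with 7 that rose and 0 that fell (median 0.11), among them HMMR (0.28), UBE2C (0.26) and CDC20 (0.26), the last not passing without CP18 replicate 1. Of the p53 targets (30 tested, 20 positive and 10 negative) 6 rose and 0 fell (median 0.09), with TP53I3 at 0.36, CDKN1A, the p21 inhibitor, at 0.26 and FBXO22 at 0.23. None of these genes was called, because none moved by more than 1 on the log2 scale.

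The interferon pathway, on which USP18 acts, moved little. Of 50 interferon-stimulated genes 37 were tested, 27 had positive and 10 negative values, and 1 rose and 3 fell (median 0.10, which was 0.04 without CP18 replicate 3). The members named here are those that fell, against the sign of most of the list. OAS1, an antiviral enzyme that makes oligoadenylates, fell most, from 40.5, 41.9 and 39.5 CPM to 22.2, 24.4 and 25.5 CPM (-0.76, SE 0.07, adjusted p = 1.1e-06). STAT2, a transcription factor of the pathway, fell by 0.31 on the log2 scale and IFITM2 by 0.36, the latter not passing without vehicle replicate 1 or 3 or CP18 replicate 1 or 3. ISG15 itself was near the bottom of the range, at 1.295, 1.42 and 1.78 CPM with vehicle and 2.06, 0.942 and 1.77 CPM with CP18, and the groups overlapped (0.10, adjusted p = 0.88). Of the 9 genes for ISG15 conjugation and removal 7 had positive and 2 negative values (median 0.11; 0.04 without vehicle replicate 1 and 0.07 without CP18 replicate 3). By edgeR's test 0 rose, where 3824 of all genes had an unadjusted p under 0.05. The 2 that fell were the transgene USP18 and its near-identical copy USP41, whose reads may come from the vector. MHC class I genes (18 tested) had 2 that rose, the immunoproteasome subunit PSMB8 (0.46) and the peptide transporter TAP2 (0.31), and a median of 0.03, with -5e-04 to 0.07 when 1 library was left out. NF-κB cytokines and feedback genes (19 tested) had 4 that rose and 3 that fell (median 0.09). CXCL8, a neutrophil chemokine, fell from 17.3, 19.0 and 20.6 to 12.1, 15.9 and 12.4 CPM (-0.50, adjusted p = 0.0030), CXCL5 fell by 0.48 on the log2 scale, and CCL2 and BIRC3 (0.36) rose.

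Of the ATF4 list (29 tested), which covers amino acid synthesis and import, 7 rose, 3 fell and 19 did not pass (median 0.11). ASNS, asparagine synthetase, had 111, 116 and 115 against 156, 153 and 152 CPM (0.43), and PCK2, the mitochondrial phosphoenolpyruvate carboxykinase, had 42.1, 42.9 and 42.2 against 58.0, 58.1 and 60.4 CPM (0.47). The serine synthesis enzymes PHGDH and PSAT1 rose by 0.40 and 0.37. CTH, which makes cysteine from cystathionine, was called lower with 13.3, 13.2 and 13.2 against 6.91, 6.86 and 5.79 CPM (-1.02, adjusted p = 9.5e-07), though not without CP18 replicate 3 (-0.94). Cholesterol genes (24 tested) had 9 that fell, 1 that rose and 14 that did not pass (median -0.14), with STARD4, which carries sterols, at -0.39 and the regulator SREBF2 at -0.29. Hypoxia and glycolysis genes (30 tested) had 2 that rose and 5 that fell (median -0.03, or -0.01 without CP18 replicate 1). Their extremes were the glucose transporter gene SLC2A3, from 210, 207 and 206 to 125, 131 and 145 CPM (-0.64), and the glycolytic regulator PFKFB3 (0.42). Hepatocyte-type and endodermal genes, of which 19 were tested, had 7 that fell and 1 that rose (median -0.27; -0.15 without vehicle replicate 1, -0.17 with no filter on low counts and -0.18 with 10 counts in every library). The urea cycle enzyme gene CPS1 had 635, 623 and 649 against 411, 404 and 452 CPM (-0.59), and the fibrinogen genes FGG, FGA and FGB fell by 0.72, 0.62 and 0.54 on the log2 scale.

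Oxidative stress genes were mixed. NRF2 targets (30 tested) had 9 that rose and 2 that fell (median 0.03, or 0.01 without vehicle replicate 2). HMOX1, heme oxygenase, had 59.9, 56.8 and 58.2 against 84.3, 72.3 and 73.9 CPM (0.40, adjusted p = 6.2e-04), and SQSTM1 and OSGIN1 both rose by 0.28. GPX2 (-0.28) did not pass without vehicle replicate 3 or CP18 replicate 1. In the list of HMOX1 and iron handling (17 tested), HMOX1 was the single member that passed, and the median of -0.001 became positive with other size factors (0.001) and ran from -0.02 to 0.01 with 1 library left out. Of the metallothionein and zinc export genes (4 tested) the exporter SLC30A1 fell (-0.20), though not when any 1 library was left out, and the median of -0.05 ran from -0.15 to 0.03 and was 0.11 with 10 counts in every library.

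In the EMT and TGF-β list (30 tested), 4 rose and 6 fell. The median of -0.006 ran from -0.02 to 0.003 with other size factors, other filters or 1 library left out. SMAD3, which transmits TGF-β signals, rose by 0.31, and BMP4 and FN1, which encodes fibronectin, fell by 0.64 and 0.51 on the log2 scale. Of 18 histone genes tested 0 rose and 1 fell by edgeR's test (median 0.02, from -0.01 to 0.07 with 1 library left out and -0.03 with 10 counts in every library). That gene was HIST1H3E (-0.63), which did not pass without vehicle replicate 1 or 3 or CP18 replicate 1 or 2. Of the 13 mitochondrially encoded genes 0 passed by edgeR's test (median 0.04). The median was -0.03 without vehicle replicate 3, 0.002 without CP18 replicate 1, 0.09 without CP18 replicate 3 and 0.11 without vehicle replicate 1. Small RNAs without a poly(A) tail varied widely within each group. The labels name a poly(A) kit and the methods removal of ribosomal RNA, and all levels of such RNAs given here, in either cell type, depend on which was used. RN7SL1, part of the signal recognition particle, had 20.6, 40.7 and 21.5 CPM with vehicle and 27.5, 31.1 and 35.1 CPM with CP18, so the groups overlapped, and its copies RN7SL2 and RN7SL3 cannot be separated with certainty. Of 10 such RNAs tested 0 passed by edgeR's test, with a median of -0.59 (-0.35 with 1 member at the detection limit set to its bound). That median became 0.18 without vehicle replicate 2, -0.14 with no filter and -0.13 with 10 counts in every library. A selection of 26 genes was taken from those the study names, some for their RNA and others as proteins that carry ISG15 (among them NME1, TUBA1C and TUBA4A). Of these 22 were tested, 3 rose (TUBA4A, TUBA1C with 0.19 and NME1 with 0.18) and 3 fell (NR4A2, USP18 and USP41). Their median of 0.08 was -0.03 without vehicle replicate 2 and -0.02 without CP18 replicate 1. LINC00319 (-1.06, adjusted p = 0.082), IL31RA (0.70, adjusted p = 0.24), DCC (-0.68, adjusted p = 0.28) and ENTPD1 (0.20, adjusted p = 0.77) did not pass, and ALDH1L1, FGF13, KLK2 and OTUD7A were too low to be tested.

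**Figure D3:**
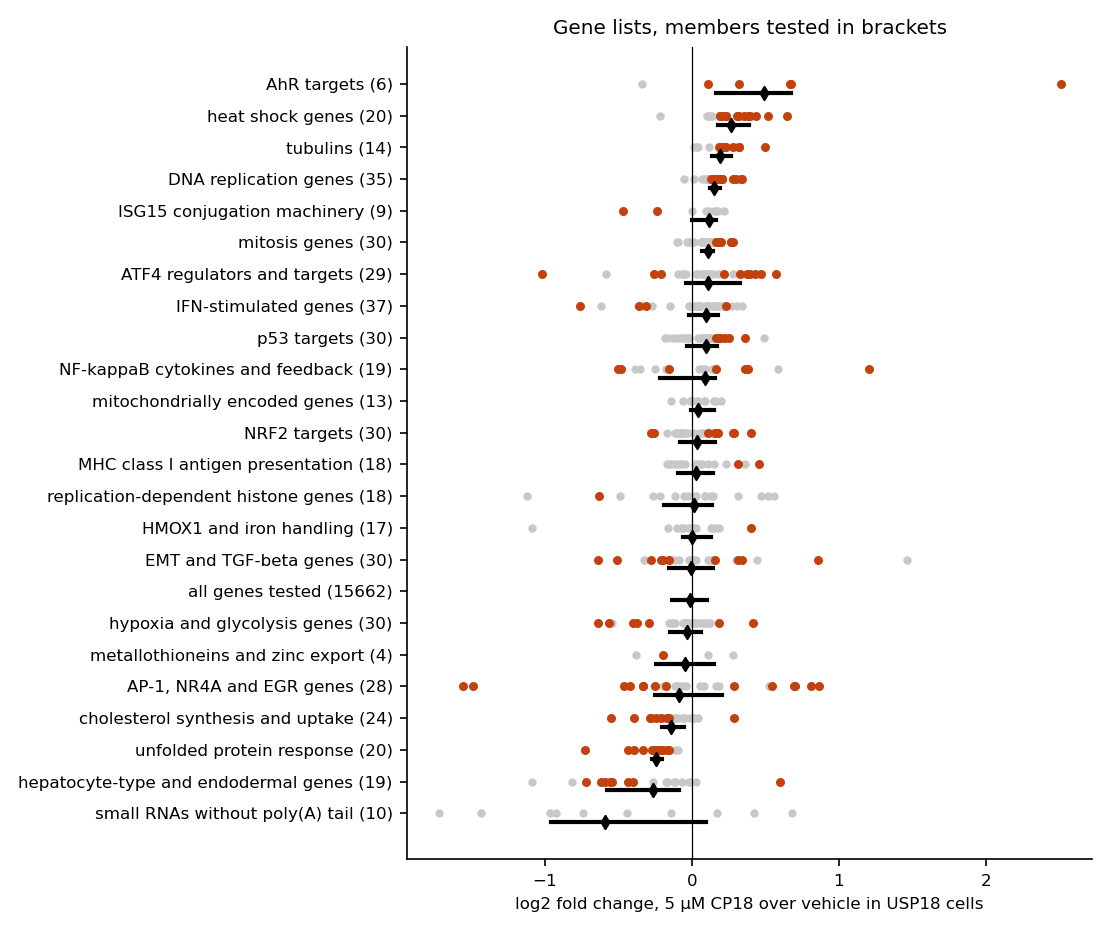
Log2 fold change (5 µM CP18 over vehicle, USP18 cells) of the members of each gene list, with members at an adjusted p under 0.05 in orange, the median as a diamond and the quartiles as a bar, and the number tested in brackets. The unfolded protein response lies wholly below 0 (median -0.25), while heat shock genes (0.27) and AhR targets (0.49) lie mostly above it and all genes centre on -0.01.

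Whether the response depended on the vector was tested as the interaction of CP18 with USP18 in a fit of 12 libraries. In empty vector cells 46 genes (0.294%) were called with 5 µM CP18, 17 higher (0.109%) and 29 lower (0.185%), and 1315 (8.4%) passed at any size, 641 higher (4.09%) and 674 lower (4.3%). The response differed between the cell types in 42 of 15662 genes (0.268%), 7 with a more positive (0.0447%) and 35 with a more negative change (0.223%) in USP18 cells. LXN passed in USP18 cells only. In empty vector cells it was at 11.3, 10.7 and 9.03 CPM with vehicle and 8.65, 9.49 and 9.27 CPM with CP18 (-0.17, adjusted p = 0.29), where USP18 cells showed -1.20, and the difference was -1.03 (95% interval -1.27 to -0.79, adjusted p = 2.0e-04). NR4A2 fell in both, from 11.8, 12.2 and 12.8 to 8.43, 8.15 and 9.17 CPM in empty vector cells (-0.51), and fell further in USP18 cells by a difference of -0.98 (-1.23 to -0.72, adjusted p = 8.3e-04). The starting levels also differed, since vehicle-treated USP18 cells held more LXN (log2 2.86) and more INSL4 (1.19) than empty vector cells, among 1588 genes (10.1%) called between the vehicle groups, 715 higher (4.57%) and 873 lower (5.57%).

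Some genes moved in opposite directions. CCN2, a matricellular protein gene and YAP target, rose by 0.52 in empty vector cells and had -0.16 in USP18 cells (difference -0.68, adjusted p = 8.0e-05), though the latter did not pass without any of vehicle replicates 1 to 3 or without CP18 replicate 1 or 2. CXCL8 rose by 0.58 in empty vector cells, from 7.94, 7.70 and 8.75 to 12.0, 12.8 and 11.8 CPM, and fell by 0.50 in USP18 cells (difference -1.08, adjusted p = 0.0017). MYLK, myosin light chain kinase, fell by 0.24 in empty vector cells and rose by 0.28 in USP18 cells (difference 0.53, adjusted p = 8.3e-04). MANF, an endoplasmic reticulum stress factor outside the naming rule, rose by 0.17 and fell by 0.25 in turn (difference -0.42, adjusted p = 0.0098; lost without empty vector vehicle replicate 1). PTGS2 (-0.70), SLC2A3 (-0.52) and PCK2 (0.41) also differed in size of response.

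Among the lists, the unfolded protein response had 1 member that rose and 3 that fell in empty vector cells (median -0.06), and its interaction median was -0.20, with HSP90B1, HSPA5 and MANF passing. HSP90B1 and HSPA5 were lost in 8 and 9 of the 12 fits that leave out 1 library. DNA replication genes had a median of -0.03 with 0 that rose by edgeR's test and 2 that fell, against 3553 genes with an unadjusted p under 0.05, and an interaction median of 0.17 with MCM2 and MCM6 passing, which were lost in 7 and 9 of those fits. Heat shock genes rose in both, with 15 of 20 in empty vector cells (median 0.21) and 0 interactions by edgeR's test, where 1282 of all genes had an unadjusted p under 0.05. For HSPA1A the difference was 0.22 (95% interval 0.09 to 0.35, adjusted p = 0.20). AhR targets had a median of 0.41 and tubulins of 0.22 in empty vector cells. The largest list median belonged to the small RNAs without a poly(A) tail, of which 8 of 10 were called lower in empty vector cells (median -2.32), so they make up 8 of the 29 called falls there. Their interaction median was 2.35 with 0 passing by edgeR's test. RN7SL1 varied widely between the vehicle libraries of empty vector cells, at 83.3, 185 and 27.4 CPM, against 30.0, 17.8 and 23.0 CPM with CP18. For CYP1A1 and GREM1 the intervals of the difference were wide, -0.04 to 2.60 and -0.18 to 2.73, as both were near the detection limit in empty vector cells. RASD1 was too, with 2 to 13 counts in those libraries, and its difference of -1.85 (-3.06 to -0.65) did not pass (adjusted p = 0.27). For 12500 genes (79.8%) the 95% interval of the difference lay within 1. The 42 genes became 22 without empty vector vehicle replicate 1, 23 without any 1 of the USP18 vehicle replicates, 25 without CP18 replicate 1 or 2 in USP18 cells and 150 without CP18 replicate 3 in empty vector cells. DESeq2 gave 102, no filter on low counts 209 and a fit of all 54 libraries 121. More positive and more negative changes were then 33 and 69, 89 and 120, and 54 and 67, and 60 and 90 without CP18 replicate 3 in empty vector cells. In each of these fits the negative ones stayed the majority, as a smaller share of the genes than among the 42.

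**Figure D4:**
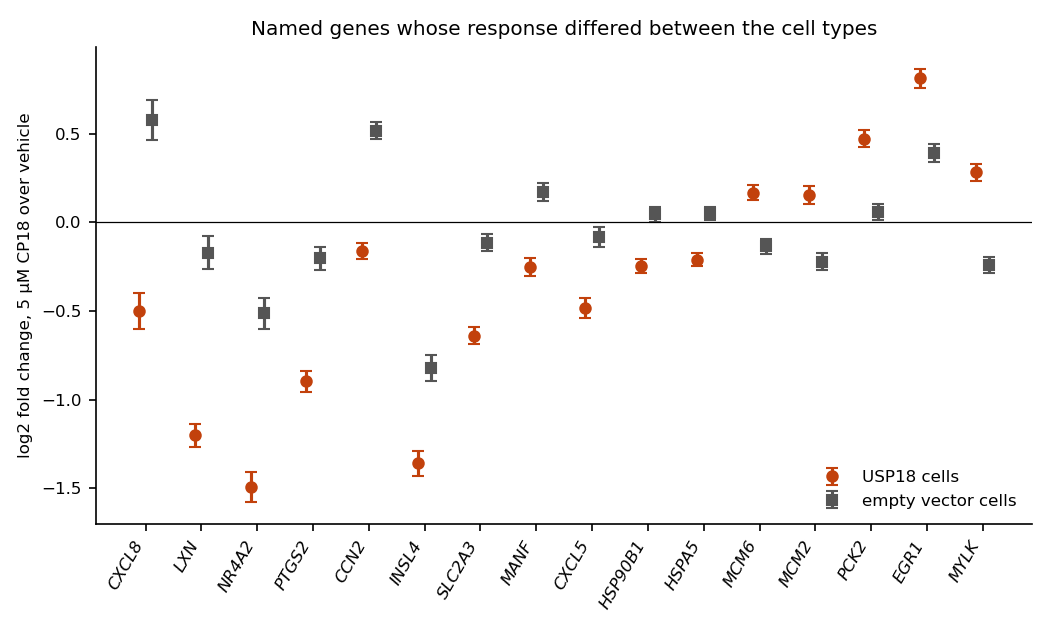
Log2 fold change with 5 µM CP18 over vehicle (bars, SE) in USP18 cells (circles) and empty vector cells (squares) for the 16 named genes whose interaction passed. CCN2, CXCL8 and MYLK lie on opposite sides of 0, whereas NR4A2 and INSL4 lie below 0 in both, lower in USP18 cells.

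Dose was examined by contrasts of 5 µM with 2.5 and 1 µM CP18, which do not use the vehicle libraries, in a fit of the 3 doses and vehicle in USP18 cells. Between 5 and 2.5 µM 8 of 15460 genes were called (0.0517%), 6 higher (0.0388%) and 2 lower (0.0129%) at 5 µM, and 195 (1.26%) passed at any size, 89 higher (0.576%) and 106 lower (0.686%). FOSB was among the 8, with a difference of 1.34 (95% interval 1.02 to 1.65, adjusted p = 6.4e-05). EGR1 (0.80, 0.68 to 0.92), JUN (0.68, 0.54 to 0.81) and HSPA1A (0.52, 0.43 to 0.61) were also higher at 5 than at 2.5 µM. LXN (-0.52), INSL4 (-0.59), BMP6 (-0.47) and XBP1 (-0.29) were lower. FEN1 differed by -0.01 (interval -0.08 to 0.06). Of the lists, 11 of 19 heat shock genes (median 0.16) and 7 of 27 AP-1, NR4A and EGR genes were higher (1 lower, NR4A3), and 3 unfolded protein response genes lower at 5 µM. Of the ATF4 list 5 of 29 were higher and 0 lower by edgeR's test (median 0.13). In addition, 2 of 6 AhR targets were higher and 3 of 18 hepatocyte-type and endodermal genes lower. All 13 mitochondrially encoded genes and all 10 small RNAs had negative values (medians -0.17 and -0.78), with 0 passing by edgeR's test. Leaving out 2.5 µM replicate 1 gave 2 called genes, 5 µM replicate 1 gave 3 and 5 µM replicate 2 gave 5 (2 higher and 3 lower). The balance of rises and falls was not steady either, at 4 and 5 without 2.5 µM replicate 3, 3 and 3 without 5 µM replicate 3, and 3 and 4 with 10 counts in every library. DESeq2 called 0 genes but gave an adjusted p to 0 of the 8, so they were not put to its test of significance, and by it 271 genes passed at any size (195 by edgeR) and 1328 had an unadjusted p under 0.05 (1882 by edgeR). No filter gave 64.

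Against 1 µM, 28 genes (0.181%) were called, 6 higher (0.0388%) and 22 lower (0.142%) at 5 µM, and 803 (5.19%) passed at any size, 344 higher (2.23%) and 459 lower (2.97%). GREM1 (1.53, adjusted p = 1.1e-04), RASD1 (-1.07, adjusted p = 8.9e-04) and SSTR2 (-1.12, adjusted p = 0.0052) were among them. RASD1 fell short of the size limit without 1 µM replicate 2 (-0.98) or 5 µM replicate 1 (-0.90) or 3 (-0.99), and SSTR2 without 1 µM replicate 2 (-0.997). CYP1A1 (1.37, adjusted p = 0.028) lost its call without any 1 of the 1 µM libraries or without 5 µM replicate 1 or 2. Heat shock genes had 11 members higher (median 0.15), the unfolded protein response 11 lower (median -0.17) and DNA replication genes 2 higher and 0 lower (median 0.01). All 13 mitochondrially encoded genes had negative values, 7 of them passing (median -0.32), as had all 10 small RNAs, 2 of them called (median -1.21). RN7SL1, at 79.4, 109 and 34.9 CPM with 1 µM, varied widely within that group. Leaving out 1 library gave 11 (5 µM replicate 1), 14, 16 and 40 (1 µM replicates 1, 2 and 3), 16 and 18 (5 µM replicates 2 and 3). The excess of falls rests on single libraries, with 7 higher and 7 lower without 1 µM replicate 1, and 11 higher and 5 lower without 1 µM replicate 2, where 5 of the 28 calls were kept. DESeq2 called 2 genes, with an adjusted p for 7 of the 28 and 769 genes that passed at any size, no filter gave 110 and 10 counts in every library 16.

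Each dose was also set beside the same vehicle libraries, so the values that follow share their control. At 1 µM 47 genes (0.304%) were called, 35 higher (0.226%) and 12 lower (0.0776%), and 2366 (15.3%) passed at any size, 1148 higher (7.43%) and 1218 lower (7.88%). At 2.5 µM 42 (0.272%) were called, 21 each way (0.136%), and 1936 (12.5%) passed, 942 higher (6.09%) and 994 lower (6.43%). In the same fit 5 µM gave 79 called genes (0.511%), 16 higher (0.103%) and 63 lower (0.408%), and 2722 (17.6%) passed at any size, 1302 higher (8.42%) and 1420 lower (9.18%). Falls thus outnumbered rises beyond 1 on the log2 scale at 5 µM and not at 1 or 2.5 µM, and at any size at each dose, a difference between doses that was not tested. Mitochondrially encoded genes differed between these groups as well, with 12, 7 and 0 of 13 that rose by edgeR's test at 1, 2.5 and 5 µM (medians 0.37, 0.26 and 0.05), and 3, 3 and 0 small RNAs were called higher. NR4A2 was at -0.77, -1.10 and -1.48 with 1, 2.5 and 5 µM, RASD1 at -1.05, -1.47 and -2.12, BMP6 at -0.78, -1.03 and -1.50, and GREM1 at 1.00, 1.77 and 2.54. The values of these genes grew with dose. All of them were named among the largest changes at 5 µM against these same vehicle libraries, so the largest value at 5 µM was favoured in advance. HSPA1A was at 0.12, 0.14 and 0.66, EGR1 at 0.35, 0.02 and 0.82 and JUN at 0.37, 0.20 and 0.88, with no steady rise over the lower doses. FEN1 was at 0.29, 0.35 and 0.34. List medians were 0.14, 0.11 and 0.31 for heat shock genes, -0.08, -0.15 and -0.24 for the unfolded protein response and 0.15, 0.13 and 0.16 for DNA replication genes.

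Compounds were compared directly at 5 µM and 48 h in a fit of CP18, CP14, CP2 and vehicle in USP18 cells. With the response to 5 µM itself, the interaction and the contrasts of doses, this makes 6 comparisons planned here. The contrasts printed beside them, in empty vector cells, between the vehicle groups and of each dose or compound with vehicle, were tested too, and each was adjusted over its own genes alone. CP18 and CP14 differed widely, with 2644 of 15646 genes called (16.9%), 1270 higher (8.12%) and 1374 lower (8.78%) with CP18. At any size 10887 passed (69.6%), 5337 higher (34.1%) and 5550 lower (35.5%), and list members counted as higher below are of this kind. RRM2, a subunit of the enzyme that makes deoxynucleotides, was higher with CP18 than with CP14 (3.14), as were FADS2 (2.43) and CPLX2 (2.64). The phosphatase gene DUSP5 (-3.27), FAM129A (-3.01), TRIB3 (-2.55) and EREG (-2.12) were lower. All 35 DNA replication genes were higher with CP18 (median 1.71), and 30 of them were called. In the same contrast 11 of 13 mitochondrially encoded genes were higher (9 called, median 1.09), as were 10 of 12 epithelial and A549 markers (9 called, median 1.10). GREM1 was lower with CP18 by 4.05 on the log2 scale (95% interval -4.33 to -3.77), and HSPA1A (1.67, 1.5 to 1.85), LXN (1.76) and NR4A2 (1.58) were higher. CYP1A1 did not differ detectably (0.32, interval -0.30 to 0.93). Set against the shared vehicle libraries, GREM1 was at 2.53 with CP18 and 6.59 with CP14, HSPA1A at 0.66 and -1.01, and FEN1 at 0.34 and -1.74. The count was 2546 to 2669 with 1 library left out.

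CP18 and CP2 differed in few genes. Of 15646, 9 were called (0.0575%), 1 higher (0.00639%) and 8 lower (0.0511%) with CP18, and 29 (0.185%) passed at any size, 13 higher (0.0831%) and 16 lower (0.102%). Of the 9, RN7SL1 (-1.52), RN7SL2 (-1.56), RNA5-8SN3 and RF00002 (-1.80 each) are small or ribosomal RNAs with near-identical copies, and TP53TG3F (6.54) was near the detection limit. EGR1 was higher with CP18 than with CP2 by 0.38 (95% interval 0.28 to 0.48, adjusted p = 9.0e-04), and CXCL5 by 0.37. USP18 was lower by 0.18 (adjusted p = 0.014), though not without CP2 replicate 3 or CP18 replicate 2 or 3. KRT4 (0.84, adjusted p = 5.5e-05), a keratin gene named after its values were seen, was higher. For most named genes the interval of the difference held 0. It was -0.12 to 0.27 for NR4A2, -0.30 to 0.53 for RASD1, -0.21 to 0.11 for HSPA1A, -0.46 to 0.35 for GREM1, -0.06 to 0.14 for FEN1 and -0.21 to 0.03 for LXN. For 13748 genes (87.9%) the interval lay within 1, which limits the size of a difference without showing that the compounds act alike. Against the shared vehicle, CP2 gave list medians of 0.30 for heat shock genes, -0.21 for the unfolded protein response and 0.16 for DNA replication genes. The 9 called genes became 2 without CP2 replicate 3 or without CP18 replicate 2 or 3, DESeq2 called 5, and no filter gave 60. The balance was not steady, at 28 higher and 32 lower with no filter, 3 and 4 without CP2 replicate 2, and 2 and 4 without CP18 replicate 1.

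**Figure D5:**
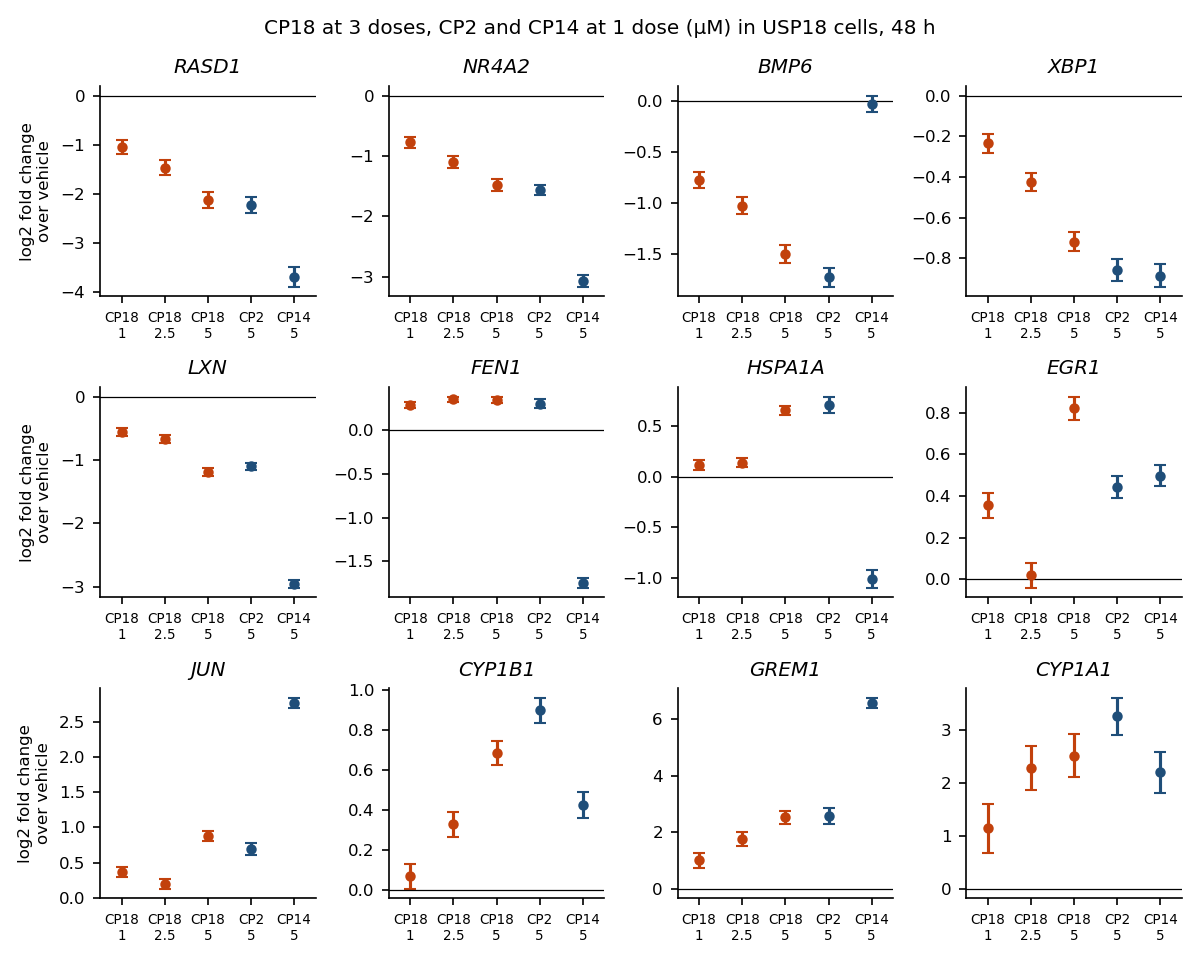
Log2 fold change over vehicle in USP18 cells (points, SE as bars) of 12 genes with CP18 at 1, 2.5 and 5 µM (orange) and with CP2 and CP14 at 5 µM (blue), all set against the same 3 vehicle libraries. GREM1 runs from 1.00 at 1 µM to 2.54 at 5 µM CP18 and reaches 6.59 with CP14, while NR4A2 runs from -0.77 to -1.48 and lies at -1.56 with CP2.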

How the data were processed

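The submitters' processing notes name bcl2fastq, cutadapt 1.18, STAR 2.7.0f and RSEM 1.3.1, and the genome hg38. The authors deposited expected counts per gene as estimated by RSEM, not scaled between libraries, and 94% of these values are whole. The labels name a stranded TruSeq mRNA kit, the methods removal of ribosomal RNA, and whether counting used the strand is not given in the sources used here. Of 58870 gene identifiers 58517 were found in GENCODE v44 (GRCh38), which gave coordinates.

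Work was done in R 4.3.3 and Python 3.11.15. Rounded counts were scaled by TMM and filtered in edgeR 4.0.16 (filterByExpr, minimum count 10, minimum total 15), where each gene was tested by quasi-likelihood F test and its p-value adjusted after Benjamini and Hochberg. A prior count of 2 entered only the log2 CPM used for principal components and for correlations between libraries. limma 3.58.1 was loaded as a package edgeR depends on, and DESeq2 1.42.0 served as the other tool. Each fit held 4 groups of 3 libraries and no pairing, and the procedure was tried on simulated data first. Between replicates, chi-square per gene was 2.03 to 11.1 over 24 pairs, above counting noise. The highest values, 8.82 and 11.1, both came from pairs with 5 µM CP18 replicate 3 of empty vector cells, and the next was 4.845. An SE is the absolute log2 fold change divided by the root of its F value. A gene was called at an adjusted p below 0.05 if its log2 fold change also lay beyond 1 either way, a size limit that was not set for the interaction. At 18876306 to 21510966 counts per library the 95% intervals had a median width of 0.352.

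Genes named by rule were, with USP18 among them, a selection of 26 genes the study names, some as RNA and some as proteins, then 12 rises and 12 falls of largest size among called genes with separated libraries and at least 1 CPM (filled by adjusted p), up to 5 members of each of 29 gene lists, and in the other comparisons the 5 called genes of smallest adjusted p each way. Genes outside this rule were picked after their values were seen. Members and lists were chosen with earlier results of these data known. All 615 list symbols were matched, 3 of them through another symbol. Results were recomputed with RLE size factors, without a filter, with 10 or more counts demanded of all libraries, with DESeq2, with replicate number as block, on 6 and on 54 libraries, and without each library in turn. Other assays of the study were not analysed here.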

Additional observations from a re-analysis of the deposited data

Results flagged for a closer look

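The response to 5 µM CP18 differed between USP18 and empty vector cells in 42 of 15662 genes by edgeR's test of the interaction, and 16 of the genes named above were among them. A negative value means a lower change in USP18 cells. The interaction log2 fold changes were -1.03 for LXN, -0.98 for NR4A2, -1.08 for CXCL8, -0.70 for PTGS2, -0.68 for CCN2, -0.52 for SLC2A3, 0.53 for MYLK and 0.41 for PCK2, and each of these 8 passed whichever of the 12 libraries was left out. MANF (-0.42) was lost without 1 of the 12 and EGR1 (0.42) without 5. INSL4 (-0.54) and MCM2 (0.38) were lost in 7 of the 12 fits, HSP90B1 (-0.29) in 8, HSPA5 (-0.26) and MCM6 (0.30) in 9 and CXCL5 (-0.40) in 10. The cause of these differences was not tested.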

How the results depend on the processing

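Of the values of single genes recomputed under alternatives, 3302 kept their direction and side of the threshold, 251 no longer passed, 78 newly passed and 15 reversed. Some alternatives were chosen after the data had been seen. All reversals came from leaving out 1 library and concern genes that did not pass with 5 µM CP18 in USP18 cells. The lowest and highest log2 fold changes so obtained were -0.0087 and 0.2242 for ANXA2P2, -0.6117 and 0.4084 for NCCRP1, -0.1716 and 0.1058 for PARP8, -1.3966 and 0.1106 for RPPH1, -0.1769 and 0.8237 for AC006064.6, -0.1558 and 0.0981 for WASF3, -0.1407 and 0.357 for ISG15, -0.0571 and 0.9145 for TP53TG3F, -0.0919 and 0.2337 for MT1X, and -0.63 and 0.371 for AC126283.2. The cause was not tested.

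The 70 genes of 5 µM CP18 in USP18 cells became 141 with no filter, 24 with 10 counts in every library (fewer genes tested) and 42 with DESeq2, and 49 to 58 with 1 library left out. The 42 interactions became 209 with no filter, 102 with DESeq2, 121 with all 54 libraries, and 22 to 150 with 1 library left out. Between 5 and 2.5 µM, 8 genes became 64 with no filter and 0 with DESeq2, which gave an adjusted p to 0 of the 8 and passed 271 genes at any size (1328 at an unadjusted p under 0.05), and 2 to 10 with 1 left out. Between 5 and 1 µM, 28 became 110 with no filter, 16 with 10 counts in every library and 2 with DESeq2 (adjusted p for 7 of the 28), and 11 to 40 with 1 left out. Against CP2, 9 became 60 with no filter and 5 with DESeq2, and 2 to 7 with 1 left out. The 2644 genes against CP14 stayed between 1808 and 3086. The cause was not tested.

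With the replicate number as a block the counts were 63 for 5 µM CP18 in USP18 cells, 30 for the interaction, 11 and 30 against 2.5 and 1 µM, 2631 against CP14 and 9 against CP2. Same-numbered libraries of the 2 groups correlated at -0.04 to -0.006, and 0 of 6 lay closest to their own number, so the numbers do not pair them. Depth limits the genes near 3 counts in a library.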
